A study of Ovis aries with 22 samples.

Results

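The data described here compare the sinus wall of the pulmonary autograft with the native pulmonary sinus wall of sheep (Ovis aries). In the Ross procedure an animal's own pulmonary root is moved into the aortic position, where its wall carries aortic pressure, and the moved root is called the pulmonary autograft. The members were chosen by label alone: 7 of the 11 libraries of the study, which are 14 of its 22 sample entries because each library was sequenced in 2 runs. The 3 autograft sinus libraries came from 3 operated animals, taken 6 months after surgery, and the 4 pulmonary sinus libraries came from 4 other animals, D3 to D6 in the labels, which the design text calls non-operated. No animal gave both tissues, so the operation, its aftermath and the load cannot be told apart here, and each tissue difference is also a difference between animals. The labels used here give no age, sex or transgene for these groups, and pooling of animals is not mentioned. The 4 aortic sinus libraries of the study came from the same animals, D3 to D6, as the pulmonary ones, and only share the estimate of spread. Animal D3 gave pulmonary replicate 1, labelled as a control, and also an aortic library labelled as Ross surgery, so calls were also made without that animal.

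The wall of a great artery is built of layers of smooth muscle cells held between elastic lamellae and collagen, with endothelium on the inner face and an adventitia of fibroblasts, small vessels, nerves and immune cells outside. Smooth muscle cells keep up a contractile programme, driven by serum response factor and its coactivator myocardin, that includes actin and myosin filaments, the membrane plaques that anchor them, and the channels and pumps that set calcium. The pulmonary trunk works at low pressure, and its wall is thinner and poorer in elastic lamellae than that of the aorta. When smooth muscle cells of an artery leave the contractile state, they are known to lower these genes and to make more matrix, and injured or loaded walls are known to take up macrophages and lymphocytes.

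Each library held 17380599 to 20741334 counts, summed over both runs, with counts in 17006 to 17940 genes. Levels are given as counts per 1000000 (CPM) scaled by TMM, always in the order of replicates 1 to 3 for autograft and 1 to 4 for pulmonary sinus. The label of arterial wall fitted the data: ACTA2, the smooth muscle actin, lay at 7665, 14403 and 15659.6 CPM in autograft and 13957, 25168, 19744 and 16518 CPM in pulmonary sinus. On the first principal component of the 7 libraries, which took 48.8% of the variance, autograft scored -59.8, -68.5 and -32.2, pulmonary replicates 2 to 4 scored 72.7, 59.2 and 34.4, and pulmonary replicate 1 fell between them at -5.84. Autograft replicate 1 stood apart on the second component, at 61.4. In bulk wall, fewer cells of a type and less RNA per cell cannot be told apart.

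Single libraries differed in markers of other cells, and several results below move with them. Of 7 mesothelial genes tested, the mean log2 CPM was 4.47, 1.05 and 0.74 in autograft, in order of replicate, and -0.17 to 1.40 in pulmonary sinus. BNC1, a transcription factor of mesothelium and other epithelia, had 221 counts in autograft replicate 1 and 0 to 3 counts in the other 6 libraries. Red cell genes marked autograft replicate 3, with 672 counts of ALAS2, the haem synthesis enzyme of erythroid cells, against 0 or 1 count elsewhere. The mean log2 CPM of 37 endothelial genes was 2.74, 5.48 and 4.74 in autograft and 3.96, 2.41, 2.43 and 2.57 in pulmonary sinus, and that of 20 adipocyte genes was 1.82, 4.49 and 3.67 against 3.46, 1.42, 1.52 and 1.99. Both lists were thus low in autograft replicate 1 and, within the native group, highest in pulmonary replicate 1.

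Gene segments of immunoglobulins or T cell receptors, which were not told apart, set autograft replicate 2 apart further. The 13 gene symbols that RefSeq types as constant regions held 310, 14173 and 1320 counts in autograft and 84, 52, 133 and 58 counts in pulmonary sinus, and the 27 typed as variable segments held 147, 16874 and 1202 against 37, 7, 6 and 5. All 3 autograft libraries were above all 4 pulmonary libraries in both sums, and the spread within the autograft group was wider than the gap to pulmonary sinus. These genes were chosen after their values were seen. The RefSeq table gives these symbols a type and no name, so the chain is not named here.

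**Figure D1:**
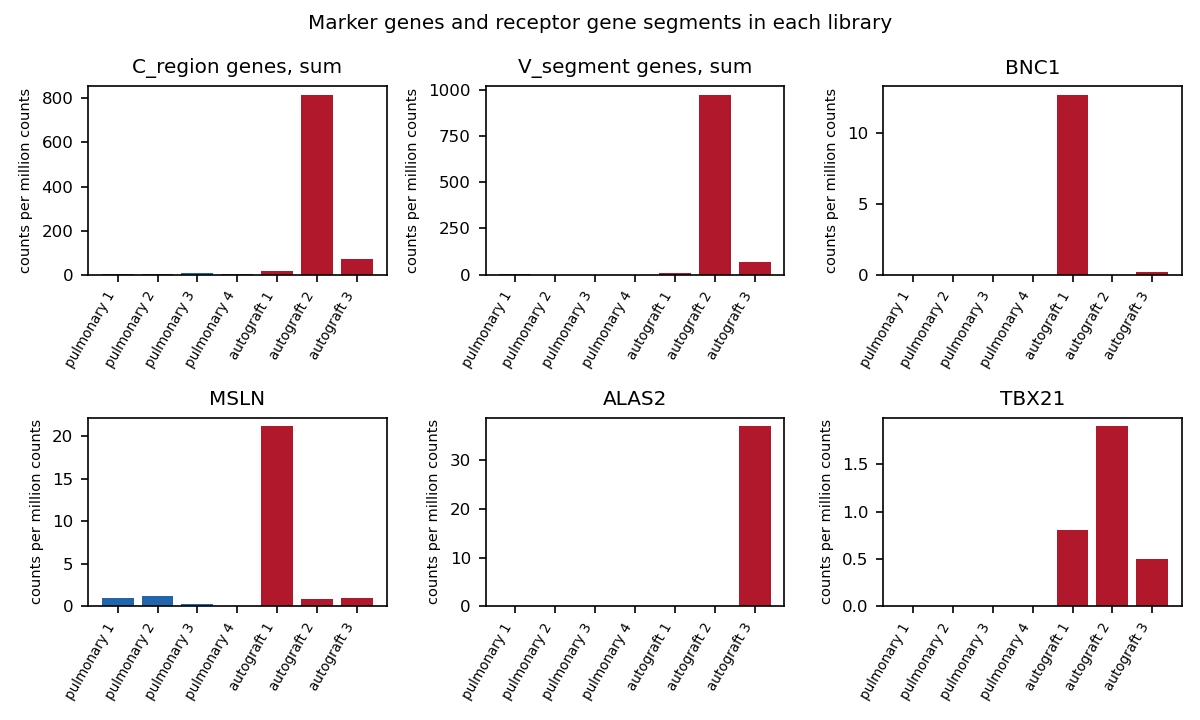
Bars give raw counts scaled to 1000000 counts in each of the 4 pulmonary (blue) and 3 autograft (red) libraries for the summed constant region genes, the summed variable segment genes, BNC1, MSLN, ALAS2 and TBX21. The receptor segments stand out in autograft replicate 2, BNC1 and MSLN in autograft replicate 1, and ALAS2 in autograft replicate 3, while TBX21 had counts in all 3 autograft libraries and 0 in the pulmonary ones.

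The comparison asks what differs, across all genes, in pulmonary wall that has been in the aortic position. Rises covered most of the tested genes of T and NK (natural killer) cells and part of the macrophage, fibrillar collagen and adventitial fibroblast genes. Part of the genes for the plaques and ion channels of smooth muscle fell, as did MYOCD, which encodes the coactivator myocardin. Of 14979 genes tested with edgeR, 1699 were called at an adjusted p under 0.05, 11.3% of all, of which 906 rose (6.05%) and 793 fell (5.29%). A further view without a test gave 1639 genes (10.9%) with every autograft library above every pulmonary one, and 1672 (11.2%) the other way round. The median log2 fold change of all genes was 0.00127.

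Rises and falls differed in size. The median log2 fold change was 1.44 among the risen genes and -0.82 among the fallen ones, 302 genes rose at least 4-fold and 41 fell as much. Median levels went from 8.36 to 23.6 CPM in the risen genes and from 52.8 to 30.3 CPM in the fallen genes, levels that are not scaled by gene length. Together the risen genes took 13.6%, 11.8% and 11.05% of the CPM in autograft and 6.91%, 4.17%, 4.91% and 6.09% in pulmonary sinus. The fallen genes took 6.53%, 7.08% and 7.96% against 11.7%, 16.3%, 15.3% and 12.4%. In both sums the groups did not overlap, which the choice of the genes fixes in large part.

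The number of calls rested on single libraries. Dropping autograft replicate 2 left 452 calls. Pulmonary replicates 2 and 3 mattered as much, with 522 and 505 calls when each was dropped, 1004 were left without pulmonary replicate 4, and dropping pulmonary replicate 1 raised the number to 2753. A core of 319 genes (2.13% of those tested), 160 higher (1.07%) and 159 lower (1.06%), was called with all libraries and also whichever of the 7 was left out. Genes of this core are called stable below. For calls that were not stable, the library whose absence gave the highest adjusted p is named, with that p in brackets. The fit of the 7 libraries alone, without the aortic ones in the estimate of spread, called 479 genes, with 285 of the 319 among them.

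**Figure D2:**
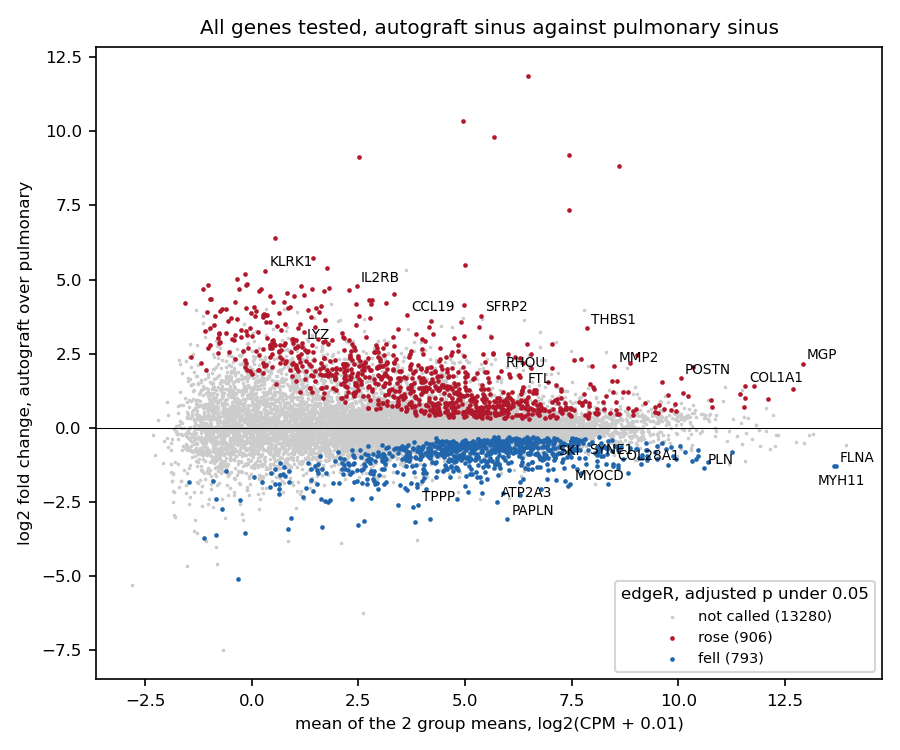
Each point is 1 of 14979 genes, with the mean of both group means on the x axis as log2(CPM + 0.01) and the log2 fold change on the y axis, positive where autograft is higher. Risen genes (red, 906) spread to large changes at low level, while fallen genes (blue, 793) form a band of smaller changes at middle and high level.

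Of the regulators of smooth muscle, myocardin was a large fall. MYOCD, which encodes myocardin, lay at 96.9, 72.3 and 55.4 CPM in autograft and 357, 318, 215 and 220.4 CPM in pulmonary sinus, a log2 fold change of -1.89 ± 0.24 (SE). Its highest autograft library was below its lowest pulmonary one by a wide gap, and the call was stable. Of 24 genes tested in the list of smooth muscle transcription regulators, 5 fell and 3 rose. Not all members of this list, RFX2 among them, are particular to smooth muscle. Besides MYOCD, RFX2 (-2.25 ± 0.28), MEF2D (-0.998 ± 0.18), MEF2C (-0.64 ± 0.15) and FOXO4 (-0.60 ± 0.14) fell. The rises were TCF21 (2.40 ± 0.49), a factor of adventitial and epicardial fibroblasts, TBX18 (1.24 ± 0.35), a factor of mural cells, and HEYL (0.92 ± 0.23), a Notch target. The median of the list was -0.12, so the regulators did not move as one. TBX18 (0.17) was not called without autograft replicate 1. FOXO4 (0.0913) lost the call without autograft replicate 2. MEF2C (0.0653), TCF21 (0.0526) and HEYL (0.0833) were not called without pulmonary replicate 2.

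The filament genes themselves were mostly lower in autograft, but few of them passed the test. Of 21 contractile filament genes, 2 fell and 0 rose, with a median log2 fold change of -0.48. The log2 fold change was above 0 for 2 of the 21. For 7 of the 21 every autograft library lay below every pulmonary one, against 11.2% of all genes. MYH11, the smooth muscle myosin heavy chain, fell from 13999, 22730.4, 20022 and 16439 CPM to 5184, 6731 and 10329 CPM (-1.30 ± 0.28, adjusted p = 0.0197), and SMTN, smoothelin, fell (-1.14 ± 0.33). ACTA2 (-0.58 ± 0.29, adjusted p = 0.193), TAGLN (-0.50 ± 0.30, 0.277) and CNN1 (-0.60 ± 0.31, 0.22) had lower means in autograft and were not called. The list was lowest in autograft replicate 1, with a mean log2 CPM of 9.85, while replicates 2 and 3 at 10.48 and 10.52 lay just under the pulmonary range of 10.61 to 11.12. MYH11 (0.0706) lost the call without autograft replicate 2. SMTN (0.118) was not called without pulmonary replicate 2.

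Some of the proteins that tie filaments to the membrane fell. Of 36 dense plaque and actin crosslinking genes, 10 fell and 0 rose (median -0.45), and the count lay between 3 and 14 when single libraries were dropped, lowest without autograft replicate 2 and highest without pulmonary replicate 1, with 4 without autograft replicate 1 or pulmonary replicate 2 or 3. SYNPO2, which bundles actin at Z-disc-like structures, lay at 565, 639 and 733 against 1132, 1493, 1515 and 1179 CPM (-1.04 ± 0.16), and TNS1, tensin, at 267, 187 and 242 against 866, 502, 669 and 629 CPM (-1.52 ± 0.25). The groups did not overlap for either gene, and both calls were stable. Filamin A (FLNA) went from 14457, 26472, 20014 and 14418 to 5610.2, 8097 and 9376 CPM (-1.29 ± 0.29), talin (TLN1) changed by -0.74 ± 0.19, vinculin (VCL) by -0.64 ± 0.18 and dystrophin (DMD) by -0.50 ± 0.12, and SGCB, the beta-sarcoglycan of the dystrophin complex, by -1.09 ± 0.18. TLN1 (0.0854) and VCL (0.121) were not called without autograft replicate 1. FLNA (0.065) and DMD (0.0864) lost the call without autograft replicate 2.

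Large linker proteins were among the most stable falls. PLEC, plectin, which joins intermediate filaments to plaques, lay at 174, 232 and 159.9 CPM in autograft and 464, 482, 451 and 363 CPM in pulmonary sinus (-1.22 ± 0.18, adjusted p = 0.00672). SYNE1, nesprin-1, a link between the nuclear envelope and actin, lay at 148, 134 and 166 against 313, 279, 287 and 332 CPM (-1.02 ± 0.12). In both genes all 3 autograft libraries lay far below the lowest native one. Other stable falls of this kind, named after their values were seen, were DST, dystonin (-0.78 ± 0.10), SPEG, a kinase of striated and smooth muscle (-1.76 ± 0.25), MPRIP, which brings myosin phosphatase to actin (-1.08 ± 0.19), FILIP1L (-1.246 ± 0.23), KANK2 (-0.99 ± 0.15), a talin-binding protein, and SPTAN1, spectrin (-0.69 ± 0.11).

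Genes of calcium and potassium handling fell in part. Of 25 genes for calcium entry and stores, 9 fell and 1 rose (median -0.31, 3 to 10 falls over the fits with 1 library left out). PLN, phospholamban, the brake on the calcium pump of the reticulum, lay at 733, 819.8 and 1038 against 1805, 2794, 2063 and 2244 CPM (-1.37 ± 0.17). The pump genes themselves were lower too, ATP2A3 at 17.2, 14.3 and 17.4 against 76.8, 107, 123 and 59.97 CPM (-2.49 ± 0.34) and ATP2A2 (-0.70 ± 0.14). CACNA1C, the pore of the L-type calcium channel, went from 42.7, 47.8, 42.3 and 32.4 to 16.3, 14.6 and 15.1 CPM (-1.43 ± 0.19). For PLN, ATP2A3 and CACNA1C all 3 autograft libraries lay well under all 4 pulmonary libraries. RYR3 (-1.85 ± 0.42), a calcium release channel, SLC8A1 (-1.31 ± 0.28), the sodium-calcium exchanger, and ATP2B4 (-1.28 ± 0.27), a pump of the plasma membrane, also fell, and ITPR2 (0.93 ± 0.19), an inositol trisphosphate receptor, rose. ATP2A2 (0.052), RYR3 (0.0686), SLC8A1 (0.0682), ATP2B4 (0.065) and ITPR2 (0.0536) lost the call without autograft replicate 2.

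Of 18 potassium channel genes, 6 fell and 0 rose (median -0.36, 1 to 6 falls with 1 library left out). The pore and beta subunit of the large-conductance calcium-activated channel, KCNMA1 (-1.11 ± 0.29) and KCNMB1 (-0.69 ± 0.15), fell together. KCNA6, a voltage-gated channel, which was outside the list and is listed in the files under its gene ID, was a stable fall from 48.5, 45.8, 53.1 and 60.7 to 22.1, 12.1 and 18.9 CPM (-1.56 ± 0.20). In KCNA6 the groups did not overlap. KCNMA1 (0.0863) and KCNMB1 (0.0644) were not called without autograft replicate 2.

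**Figure D3:**
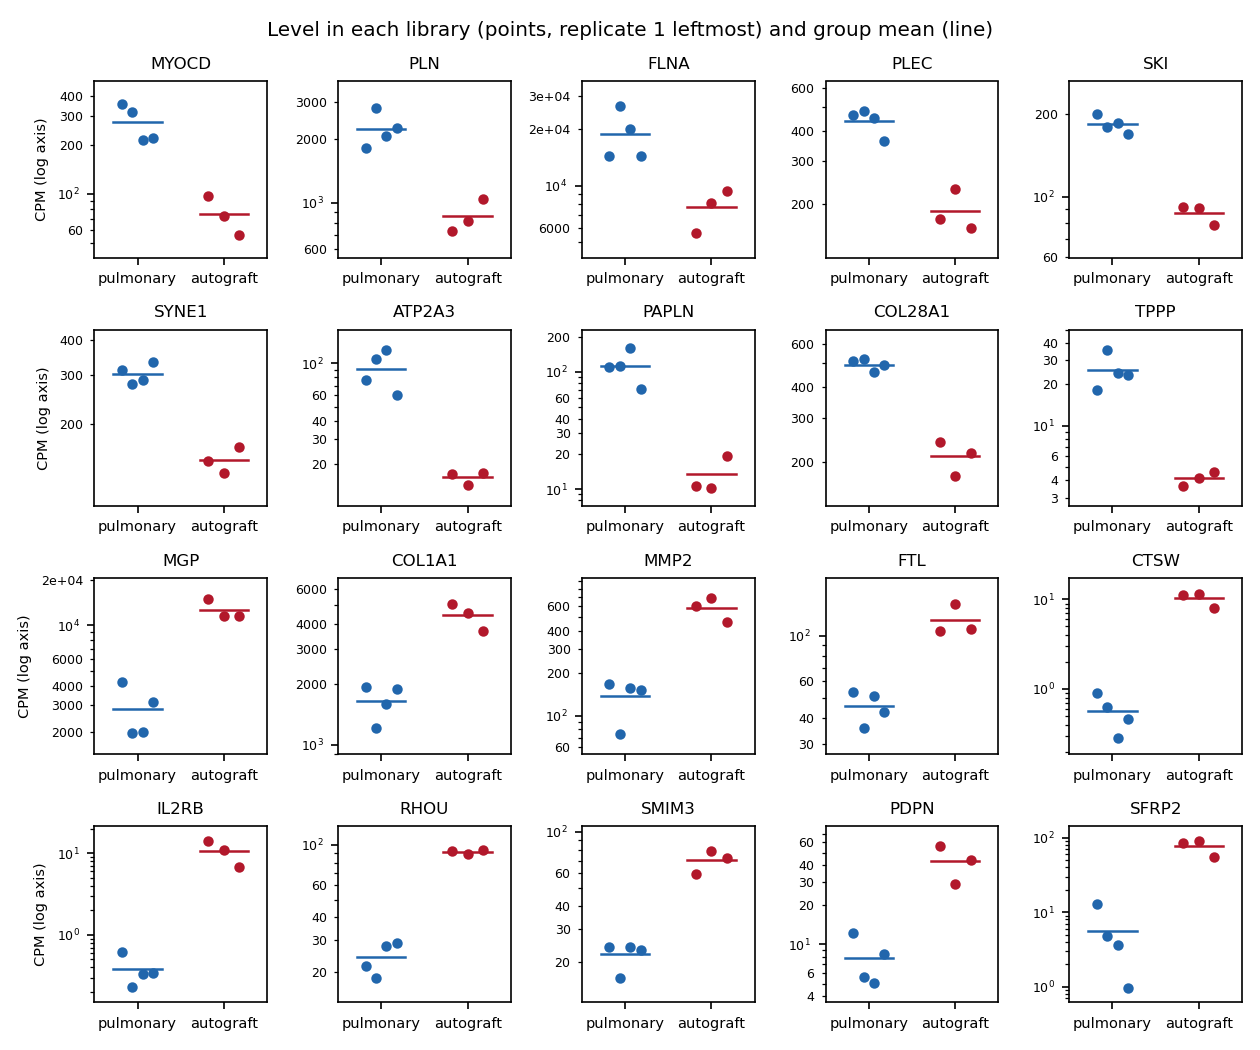
Points give the CPM of each library on log axes for 20 genes, pulmonary replicates 1 to 4 in blue and autograft replicates 1 to 3 in red, with a line at each group mean. In each of the 20 panels the groups do not overlap: the upper 10 genes were lower in autograft and the lower 10 were higher.

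Receptors that set vessel tone split by direction. Of 35 vasoactive receptors and enzymes, 8 rose and 4 fell. The falls were PTGIS, prostacyclin synthase, at 837, 1022 and 986 against 1491, 2048, 2193 and 1689 CPM (-0.97 ± 0.17), its receptor PTGIR (-1.46 ± 0.28), the serotonin receptor HTR2A (-1.67 ± 0.41) and the adrenergic receptor ADRA1B (-1.05 ± 0.29). PTGIS was stable and did not overlap. The rises included EDN1, the endothelin-1 precursor, at 7.20, 123 and 46.8 against 7.57, 0.856, 3.04 and 2.001 CPM (4.13 ± 0.86), and NOS3, endothelial nitric oxide synthase, at 6.86, 99.5 and 36.4 against 8.53, 3.14, 7.12 and 4.46 CPM (3.03 ± 0.70). Both were high in replicates 2 and 3, the libraries with high endothelial markers, and within the pulmonary range in replicate 1. The part of endothelial RNA in these rises was not tested. Without autograft replicate 2 the list had 0 rises, and it had 1 without pulmonary replicate 3 and 3 without pulmonary replicate 2 or 4. PTGIR (0.0509), HTR2A (0.0988), ADRA1B (0.125), EDN1 (0.0637) and NOS3 (0.0992) lost the call without autograft replicate 2.

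RHOU, which encodes a small GTPase, was among the most stable rises, at 92.0, 89.1 and 93.4 CPM in autograft and 21.6, 18.5, 27.7 and 28.9 CPM in pulmonary sinus (1.92 ± 0.23, adjusted p = 0.0042). Its 3 autograft libraries were nearly equal, far above the highest native one. Of 13 genes of caveolae and gap junctions 3 fell and 0 rose: SDPR (cavin-2) from 269, 832, 485 and 467 to 100.5, 139.7 and 170.3 CPM (-1.91 ± 0.33), PTRF (cavin-1, -1.06 ± 0.20) and CAV1 (caveolin-1, -0.81 ± 0.21). In the list of cGMP and cAMP signalling 2 of 25 rose, PDE7B (2.11 ± 0.40) and PRKAR2B (1.32 ± 0.34), and 3 fell, ADCY5 (-1.21 ± 0.33), AKAP6 (-0.46 ± 0.13) and NPR2 (-0.38 ± 0.11). The share called in that list was 20%, against 11.3% of all genes. PRKAR2B (0.0946) was not called without autograft replicate 1. PTRF (0.051) and AKAP6 (0.134) lost the call without autograft replicate 2. ADCY5 (0.101) was not called without pulmonary replicate 2. CAV1 (0.0799) and NPR2 (0.111) lost the call without pulmonary replicate 3.

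Several fibrillar collagen genes rose. Of 10 fibrillar collagen genes, 4 rose and 0 fell (median 0.78, 1 to 4 rises with 1 library left out). COL1A1, a chain of type I collagen, lay at 5057, 4537 and 3711 CPM in autograft and 1932, 1206, 1605 and 1895 CPM in pulmonary sinus (1.42 ± 0.21, adjusted p = 0.00713), and COL3A1, type III, at 13596, 7739 and 6772 against 5016, 2368, 2731 and 4937 CPM (1.32 ± 0.30). COL1A2 rose by 0.96 ± 0.24. COL11A1, a nucleator of fibrils found at low level in normal wall, went from 0.904, 0.628, 1.69 and 0.343 to 15.0, 17.8 and 17.4 CPM (4.20 ± 0.94). The groups did not overlap for COL1A1 or COL11A1. Of 30 genes that modify and crosslink collagen, 4 rose, among them P4HA3 (2.4995 ± 0.34), a prolyl hydroxylase, PCOLCE (1.22 ± 0.32) and FKBP10 (0.57 ± 0.14), and ADAMTS14, a procollagen protease, fell (-1.78 ± 0.50). COL11A1 (0.0633) and ADAMTS14 (0.118) lost the call without pulmonary replicate 2. COL3A1 (0.0685), COL1A2 (0.0899), PCOLCE (0.0978) and FKBP10 (0.0807) were not called without pulmonary replicate 3.

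Other interstitial collagens were called in both directions. COL28A1, a beaded collagen known from basement membranes of nerve, was a stable fall, at 239, 175 and 216 against 510.5, 519, 460.1 and 490.3 CPM (-1.24 ± 0.14), and COL21A1, a collagen of vessel walls, fell from 73.8, 64.1, 109 and 74.8 to 36.3, 25.5 and 33.2 CPM (-1.34 ± 0.22). Both chains of type VIII collagen, COL8A1 (2.31 ± 0.55) and COL8A2 (1.88 ± 0.49), rose, so that 2 of 17 other interstitial collagens rose and 2 fell. COL7A1, the anchoring fibril collagen, was outside the lists and named after its values were seen; its log2 fold change was -1.64 ± 0.29. COL8A1 (0.0719) and COL8A2 (0.0918) were not called without pulmonary replicate 3.

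Basement membrane genes were called in both directions. Of 29 tested, 10 fell and 4 rose (median -0.28, 3 to 11 falls with 1 library left out). PAPLN, papilin, lay at 10.6, 10.3 and 19.3 against 109.6, 112, 159.8 and 72.0 CPM (-3.08 ± 0.38), a stable fall without overlap. HSPG2, perlecan (-1.06 ± 0.22), NID2, nidogen (-0.59 ± 0.14), the laminin chains LAMA4 (-0.72 ± 0.14) and LAMA5 (-0.83 ± 0.21), and COL4A5 (-0.999 ± 0.22) and COL4A6 (-1.28 ± 0.33) fell too. Against them COL4A3, another type IV collagen chain, was a stable rise from 2.09, 1.48, 1.69 and 1.72 to 6.92, 4.72 and 11.2 CPM (2.12 ± 0.30), and LAMA3 (2.06 ± 0.42), a chain of an epithelial laminin, rose. LAMA3 lay at 6.58, 13.7 and 9.65 CPM in autograft and 4.29, 1.26, 1.69 and 2.34 CPM in pulmonary sinus. The library with the mesothelial genes, autograft replicate 1, was its lowest of the 3 autograft libraries. The part of mesothelial RNA in the LAMA3 rise was not tested. LAMA4 (0.0552), COL4A5 (0.0729), COL4A6 (0.107) and LAMA3 (0.0587) lost the call without autograft replicate 2. NID2 (0.0728) was not called without pulmonary replicate 2. HSPG2 (0.0511) and LAMA5 (0.0821) lost the call without pulmonary replicate 3.

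Several small proteoglycans and matricellular proteins rose. Of 14 small leucine-rich proteoglycans 4 rose and 0 fell (median 0.87, 2 to 6 rises with 1 library left out): DCN, decorin, from 2945, 963, 1713 and 2126 to 5853, 4085 and 5364 CPM (1.40 ± 0.31), FMOD, fibromodulin (0.93 ± 0.16), PODN (1.46 ± 0.40) and PODNL1 (1.17 ± 0.30). Of 24 matricellular genes 4 rose and 0 fell: THBS1, thrombospondin-1, at 679, 353 and 229.8 against 85.0, 20.8, 18.9 and 40.4 CPM (3.35 ± 0.59), POSTN, periostin (1.67 ± 0.42), WISP1 (3.05 ± 0.58) and SPP1, osteopontin (3.16 ± 0.92). THBS1 did not overlap between groups and was stable. Of 23 genes of large proteoglycans and hyaluronan, HYAL2, a hyaluronidase (1.37 ± 0.37), and SPOCK2, testican-2 (1.57 ± 0.44), rose, and GPC1, glypican-1, fell (-0.81 ± 0.18). That list had 0 rises without autograft replicate 2 or pulmonary replicate 2, 3 or 4, 1 without autograft replicate 3 and 5 without pulmonary replicate 1. MMP2, gelatinase A, was the most stable protease rise, at 604, 682 and 464 CPM in autograft and 167, 74.5, 157 and 154 CPM in pulmonary sinus (2.08 ± 0.26). Of 30 proteases and inhibitors 3 rose, with CTSK (1.204 ± 0.27) and MMP16 (2.51 ± 0.63) beside MMP2, and MMP11 fell (-1.47 ± 0.29). POSTN (0.102) and MMP16 (0.103) were not called without autograft replicate 1. PODNL1 (0.097), HYAL2 (0.151), SPOCK2 (0.179) and MMP11 (0.0553) lost the call without autograft replicate 2. GPC1 (0.0597) was not called without pulmonary replicate 2. DCN (0.0594), PODN (0.108), SPP1 (0.12) and CTSK (0.064) lost the call without pulmonary replicate 3.

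No gene of the elastic fibre was called. Of 20 tested, 0 rose and 0 fell by edgeR. ELN, elastin, lay at 2062, 1919.5 and 1708 against 2950.3, 1961, 1636 and 9977 CPM (-1.12 ± 0.58, adjusted p = 0.212), and the log2 difference of FBN1, fibrillin-1, was 0.76 ± 0.41 (adjusted p = 0.241). Of the 20, 5 had an unadjusted p under 0.05, and DESeq2 called 3. The 3 autograft values of ELN lay among the lower 3 pulmonary ones, and pulmonary replicate 4 was far above all others. Of 20 ADAMTS family genes 2 fell, ADAMTS10 (-0.996 ± 0.18), which binds fibrillin, and ADAMTSL5 (-1.03 ± 0.27). The share called in this family was 10%, near the 11.3% of all genes. ADAMTSL5 (0.113) lost the call without autograft replicate 2.

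MGP encodes matrix Gla protein, an inhibitor of mineral deposition, and was higher in each autograft library, at 14850.2, 11606 and 11619 CPM in autograft and 4214, 1967, 1998 and 3142 CPM in pulmonary sinus (2.16 ± 0.34, adjusted p = 0.00914). In the list of 23 calcification and cartilage genes 5 rose and 2 fell. PHEX (2.83 ± 0.57), RUNX1 (2.75 ± 0.63), a transcription factor of blood and skeletal cells, CHRDL1 (2.02 ± 0.45) and SPP1 rose, and the phosphate transporter SLC20A2 (-0.86 ± 0.17) and the pyrophosphate exporter ANKH (-0.72 ± 0.21) fell. The list thus holds calcification inhibitors on both sides. PHEX (0.0551) and ANKH (0.15) were not called without autograft replicate 2. RUNX1 (0.0685) and CHRDL1 (0.0651) lost the call without pulmonary replicate 3.

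Integrin genes were called in both directions. Of 23 subunits 5 rose and 4 fell. The fallen ones, ITGA8 (-0.62 ± 0.11), ITGA3 (-1.22 ± 0.21), ITGA9 (-0.94 ± 0.20) and ITGA7 (-0.92 ± 0.23), pair with beta subunits on smooth muscle and other wall cells. ITGA8 lay at 847, 722 and 922 against 1196, 1339, 1259 and 1317 CPM. The risen ones were the leukocyte subunits ITGB2 (2.20 ± 0.51), ITGAL (2.77 ± 0.53), ITGAD (4.36 ± 0.83) and ITGB7 (1.95 ± 0.28), and ITGA2 (1.95 ± 0.45), a collagen receptor. ITGA9 (0.0661), ITGB2 (0.0748) and ITGA2 (0.0757) lost the call without autograft replicate 2. ITGA7 (0.0861) was not called without pulmonary replicate 2.

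In the growth factor pathways single regulators stood out rather than whole pathways. SKI, a repressor of TGF-beta signalling that binds SMAD proteins, was one of the most stable falls of all, at 91.8, 91.1 and 78.5 CPM in autograft and 201, 179, 186 and 169 CPM in pulmonary sinus (-1.08 ± 0.10, adjusted p = 0.00142). The 3 autograft values were close together and far below the lowest native one. Of 50 TGF-beta and BMP genes 7 rose, among them BMP6 (1.75 ± 0.35), BMP4 (1.29 ± 0.36), BMPR1B (3.14 ± 0.67), TGFBR1 (0.73 ± 0.18) and ACVRL1 (1.204 ± 0.32), and 4 fell, SKI, SMAD4 (-0.65 ± 0.13), SMAD1 (-0.75 ± 0.20) and BMPR1A (-0.56 ± 0.11). The counts lay between 1 and 9 rises and between 1 and 5 falls with 1 library left out. BMP4 (0.136) was not called without autograft replicate 1. BMP6 (0.0557), ACVRL1 (0.133), SMAD4 (0.0554) and BMPR1A (0.0509) lost the call without autograft replicate 2. BMPR1B (0.0577), TGFBR1 (0.0877) and SMAD1 (0.0972) were not called without pulmonary replicate 3.

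Of 43 FGF, PDGF and VEGF family genes 10 rose and 0 fell, from 0 to 18 rises with 1 library left out. They were led by ANGPTL4 (2.70 ± 0.57), PDGFRL (1.27 ± 0.27), MET (2.08 ± 0.45), FGFRL1 (1.97 ± 0.49), HGF (1.43 ± 0.37), the MET ligand, and FGF10 (3.65 ± 0.95). Of 34 Wnt genes 2 rose and 3 fell: SFRP2, a secreted Wnt modulator of fibroblasts, was a stable rise at 85.8, 90.5 and 55.3 against 13.1, 4.796, 3.65 and 0.972 CPM (3.78 ± 0.64), DKK2 rose (2.14 ± 0.60), and LRP5 (-0.88 ± 0.18), FZD6 (-0.63 ± 0.16) and ROR2 (-0.72 ± 0.20) fell. SFRP2 was variable within pulmonary sinus, where replicate 1 was the highest and replicate 4 the lowest. Of 18 insulin-like growth factor genes IGFBP2 (3.40 ± 0.57) and IGFBP4 (1.45 ± 0.29) rose and IRS1 (-1.29 ± 0.25) and IGFALS (-1.29 ± 0.26) fell. Among 25 YAP and mechanosensitive genes 4 fell, TEAD1 (-0.97 ± 0.17), the DNA-binding partner of YAP, PKD1 (-0.74 ± 0.13), AMOTL1 (-0.49 ± 0.14) and YAP1 itself (-0.41 ± 0.12), and 2 rose, AMOTL2 (1.15 ± 0.31) and CRIM1 (1.15 ± 0.32). Of 19 Notch genes MFNG (2.38 ± 0.56) and HEYL rose and MAML2 (-0.53 ± 0.13) fell. The share called was 14.7% for Wnt and 15.8% for Notch genes, not far from the 11.3% of all genes. It was 22.2% for insulin-like growth factor genes, 23.3% for FGF, PDGF and VEGF genes and 24% for YAP and mechanosensitive genes. AMOTL2 (0.108) and CRIM1 (0.135) lost the call without autograft replicate 1. ANGPTL4 (0.0585), MET (0.0556), FGFRL1 (0.106), FGF10 (0.0939), LRP5 (0.0581), FZD6 (0.0943), ROR2 (0.11), IGFBP4 (0.0541), IRS1 (0.0561), IGFALS (0.0551), AMOTL1 (0.127), YAP1 (0.149), MFNG (0.0986) and MAML2 (0.102) were not called without autograft replicate 2. PDGFRL (0.0556), HGF (0.09) and DKK2 (0.106) lost the call without pulmonary replicate 3.

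**Figure D4:**
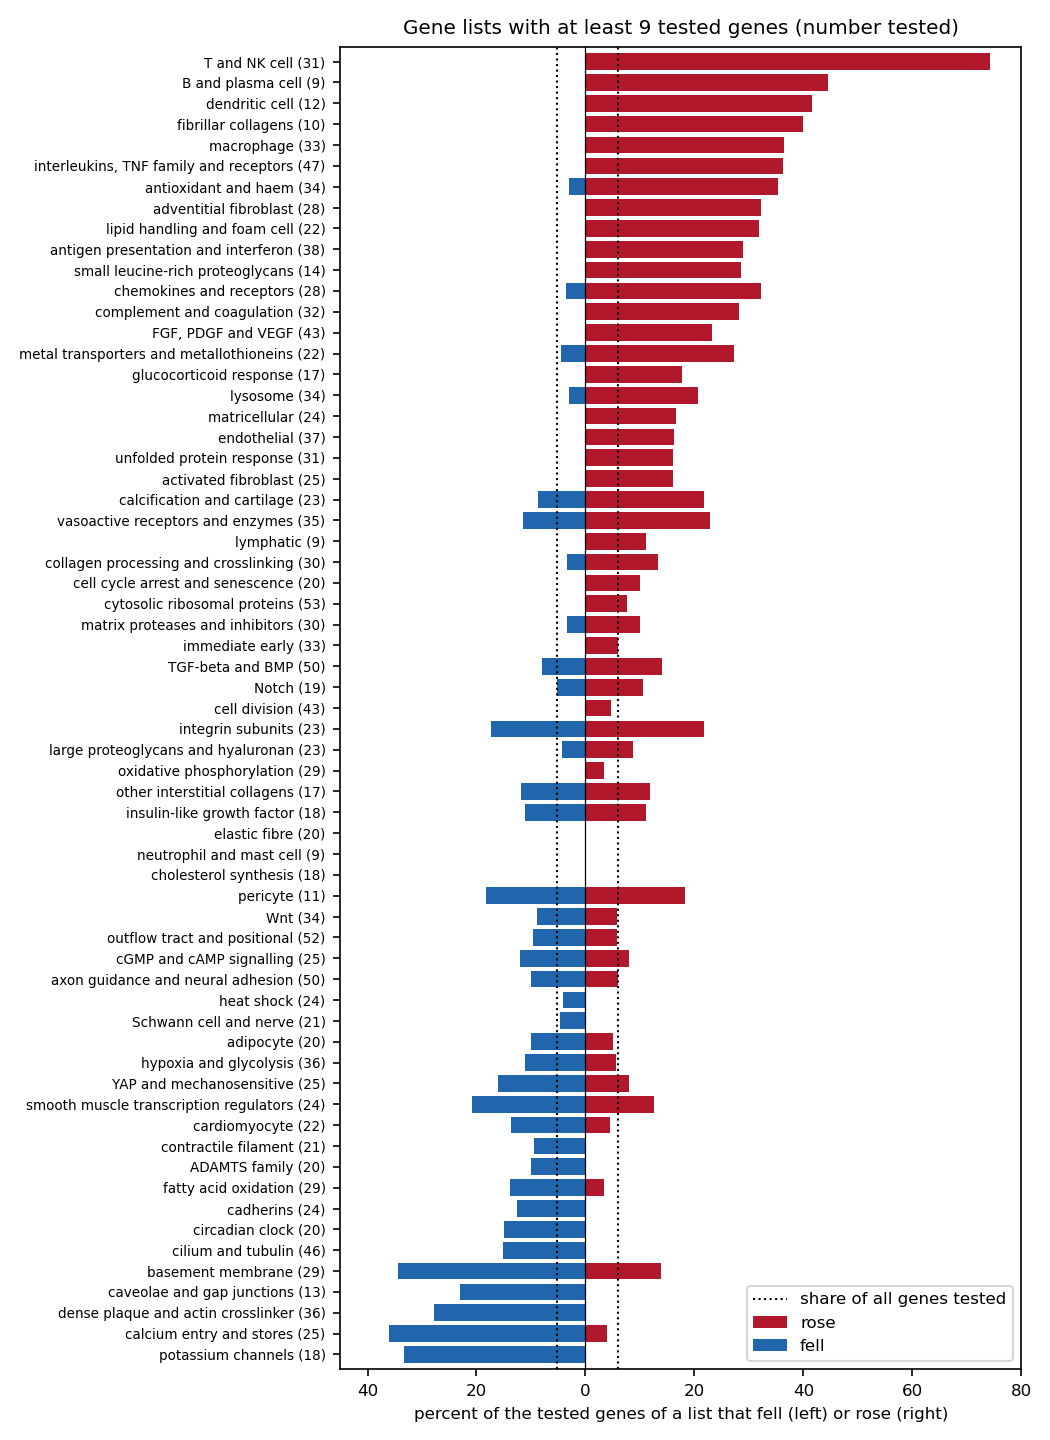
Bars give the percent of the tested genes of each list that rose (red, right) or fell (blue, left), for lists with at least 9 tested genes, and dotted lines mark the shares among all genes tested, 6.05% risen and 5.29% fallen. Lymphocyte, macrophage, cytokine and collagen lists extend to the right, and ion channel, dense plaque and basement membrane lists to the left.

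Most of the T and natural killer cell genes tested rose. Of 48 such genes with a symbol in the data, 31 passed the filter on low counts. A gene can pass that filter through the autograft libraries alone, so the filter fixes the share of rises in part. Of the 31, 23 rose and 0 fell, against 6.05% of all genes, and 18 to 24 rose with 1 library left out. The median log2 fold change was 3.29. CTSW, a cathepsin of cytotoxic cells, lay at 11.2, 11.5 and 8.06 CPM in autograft and 0.904, 0.628, 0.281 and 0.457 CPM in pulmonary sinus (4.17 ± 0.40), and CD3E, part of the T cell receptor complex, at 7.26, 8.15 and 8.23 against 1.92, 0.457, 0.703 and 0.686 CPM (3.06 ± 0.45). IL2RB, of the interleukin-2 receptor, lay at 14.0, 11.1 and 6.76 against 0.621, 0.228, 0.328 and 0.343 CPM (4.78 ± 0.44). The autograft libraries were alike, with list means of 1.60, 1.56 and 1.64 log2 CPM, against -0.23 in pulmonary replicate 1 and -1.19 to -1.06 in the other pulmonary libraries. Pulmonary replicate 1 was thus the highest native library for this list as for the endothelial one.

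Genes of cytotoxic cells and genes of T cell signalling were both among the rises. Stable rises of cytotoxic genes were NKG7 (3.90 ± 0.50), PRF1, perforin (3.56 ± 0.64), and KLRK1, the activating receptor NKG2D, at 2.92, 2.62 and 1.70 against 0.113, 0.0571, 0 and 0.0572 CPM. Signalling genes of T cells, LCK (3.01 ± 0.54), CD6 (3.57 ± 0.66) and CD5 (2.65 ± 0.48), and IL7R (4.17 ± 0.71), the receptor for the survival factor interleukin-7, rose as well. TBX21, the factor of type 1 lymphocytes, had 14, 33 and 9 counts in autograft and 0 in all 4 pulmonary libraries, and CD27 had 8, 12 and 14 counts against 0. In each native library a count of 0 allows up to 3 counts.

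B cell genes were fewer and less even, and of 21 with a symbol in the data 9 passed the filter. As for the T cell genes, the filter fixes the share of rises in part. Of 9 tested, 4 rose and 0 fell (1 to 6 with 1 library left out): BANK1, an adaptor of B cell signalling, at 7.65, 6.11 and 2.44 against 1.30, 0.971, 0.796 and 1.14 CPM (2.36 ± 0.40), JCHAIN (1.97 ± 0.54), IRF4 (3.03 ± 0.85) and CD22 (2.58 ± 0.76). MS4A1, which encodes CD20, had 5, 1 and 22 counts in autograft and 0 in pulmonary sinus, and PAX5 had 0 counts in all 7 libraries. CD22 (0.175) was not called without autograft replicate 1. JCHAIN (0.188) lost the call without autograft replicate 2. IRF4 (0.0945) was not called without pulmonary replicate 2.

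Macrophage genes rose in part. Of 33 tested 12 rose and 0 fell, with a median of 1.94, but the count was 0 without autograft replicate 2, 1 to 5 without autograft replicate 1 or pulmonary replicate 2, 3 or 4, and 23 and 20 without autograft replicate 3 and pulmonary replicate 1. The list means were 5.04, 4.73 and 3.04 log2 CPM in autograft and 3.45, 1.59, 1.93 and 2.85 in pulmonary sinus, so autograft replicate 3 lay below pulmonary replicate 1. LYZ, lysozyme, lay at 3.37, 4.19 and 4.37 against 0.734, 0.0571, 0.796 and 0.572 CPM (2.86 ± 0.61), TREM2, a lipid receptor of tissue macrophages, at 1.63, 3.20 and 0.398 against 0.226, 0.285, 0.0937 and 0.0572 CPM (3.36 ± 0.84), and CD68 at 81.3, 65.8 and 22.3 against 28.7, 9.48, 10.5 and 22.0 CPM (1.68 ± 0.47, adjusted p = 0.0449). For TREM2 and CD68 autograft replicates 1 and 2 were the high ones and replicate 3 was the lowest of the 3, within the pulmonary range for CD68. The groups did not overlap for LYZ or TREM2. TLR4 (1.76 ± 0.37), CD14 (2.05 ± 0.51) and CD86 (1.94 ± 0.51) rose too. Of 16 dendritic cell genes with a symbol in the data, 12 passed the filter on low counts, which fixes the share of rises in part. Of the 12, 5 rose, LAMP3 of mature cells (3.80 ± 0.66) and FLT3 (3.76 ± 0.96) among them. CCR7, a homing receptor, had 2, 4 and 67 counts against 0. Neutrophil and mast cell genes gave 0 calls of 9 by edgeR, with 4 at an unadjusted p under 0.05 and 2 calls by DESeq2. CD68 (0.124), CD14 (0.0862) and CD86 (0.11) lost the call without autograft replicate 1. LYZ (0.0545), TREM2 (0.114) and FLT3 (0.0989) were not called without autograft replicate 2. TLR4 (0.0537) lost the call without pulmonary replicate 3.

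**Figure D5:**
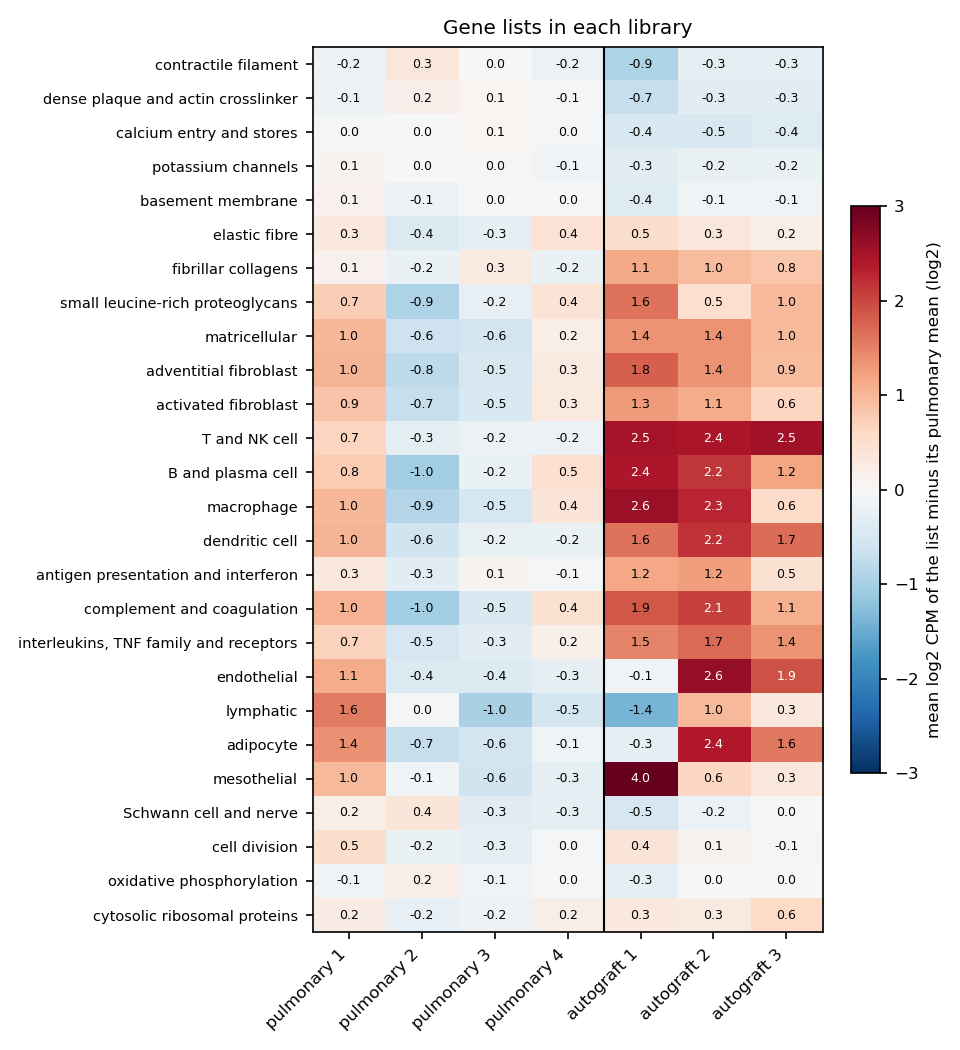
Each cell is the mean log2 CPM of the tested genes of a list in 1 library, minus its mean over the 4 pulmonary libraries, red where higher and blue where lower. T and NK cell genes are even over the 3 autograft libraries, macrophage genes are weakest in autograft replicate 3, endothelial and adipocyte genes are missing from the rise in autograft replicate 1, and pulmonary replicate 1 is above the other native libraries in most fibroblast and immune lists.

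Part of the genes for signals between immune cells rose. Of 62 interleukin and TNF family genes with a symbol in the data, 47 passed the filter on low counts. A gene can pass it through the autograft libraries alone, so the filter fixes the share of rises in part. Of the 47, 17 rose and 0 fell (9 to 26 with 1 library left out), against 6.05% risen of all genes. TNFRSF1B, TNF receptor 2, lay at 38.8, 59.3 and 35.8 against 18.9, 8.05, 10.1 and 11.3 CPM (1.88 ± 0.33) and IL1RN, the interleukin-1 receptor antagonist, at 2.47, 5.07 and 24.1 against 1.02, 0.913, 0.656 and 0.515 CPM (3.76 ± 0.77). IL1B (4.60 ± 1.16), TNF (2.70 ± 0.75), LTB (2.91 ± 0.58) and IL15RA (2.21 ± 0.42) rose, and IL6, chosen after its values were seen, had a difference of 5.31 ± 1.63 that did not pass (adjusted p = 0.0571), with 1.86, 9.49 and 60.7 CPM in autograft. Its value was set by replicate 3. Of 44 chemokines and receptors with a symbol in the data, 28 passed the same filter, with the same limit. Of the 28, 9 rose, among them CCL5 (4.23 ± 0.66), CCL19 (3.79 ± 0.87), CXCL12 (1.57 ± 0.35), CXCL16 (1.40 ± 0.30) and CXCR4 (2.36 ± 0.46). ACKR2, a decoy receptor that clears chemokines, fell from 5.93, 10.1, 1.59 and 5.66 to 1.52, 0.524 and 1.02 CPM (-2.498 ± 0.57). CCL19 (0.0996), CXCL12 (0.0661), CXCL16 (0.0699) and ACKR2 (0.0793) were not called without autograft replicate 2. IL1B (0.134) and TNF (0.119) lost the call without autograft replicate 3. IL1RN (0.0533) was not called without pulmonary replicate 3.

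Part of the genes of antigen presentation and innate defence rose. Of 38 antigen presentation and interferon genes 11 rose and 0 fell (1 to 15 with 1 library left out). B2M, the light chain of class I molecules, lay at 1159, 1435 and 967 against 717, 414, 494 and 604 CPM (1.09 ± 0.23), and the RNA sensor IFIH1 (1.32 ± 0.25), ISG15 (1.77 ± 0.40) and MX2 (2.40 ± 0.59) rose. Of 32 complement and coagulation genes 9 rose and 0 fell (1 to 18). They included C1R (2.20 ± 0.45) and C1S (2.45 ± 0.71), the proteases of the first component, CFB (2.502 ± 0.69), CFD (2.99 ± 0.48), an adipocyte and fibroblast product at 33.1, 39.2 and 11.87 against 6.44, 2.74, 2.15 and 2.80 CPM, and the inhibitor SERPING1 (0.68 ± 0.16). The groups did not overlap for CFD. MX2 (0.108) lost the call without autograft replicate 1. B2M (0.0637), ISG15 (0.0581), C1R (0.051) and SERPING1 (0.0776) were not called without autograft replicate 2. C1S (0.112) and CFB (0.099) lost the call without pulmonary replicate 3.

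Part of the fibroblast genes rose. Of 28 adventitial fibroblast genes 9 rose and 0 fell (3 to 16 with 1 library left out), with list means of 8.27, 7.83 and 7.42 log2 CPM in autograft and 7.48, 5.68, 5.98 and 6.75 in pulmonary sinus. Pulmonary replicate 1 lay within the autograft range and was the highest native library, as for the endothelial list. The order of the autograft libraries was that of the mesothelial list, 4.47, 1.05 and 0.74, whose part in the fibroblast result was not tested. APOD, apolipoprotein D, lay at 167, 259 and 208 against 75.1, 48.1, 22.7 and 64.9 CPM (2.004 ± 0.35), and DPP4 (3.70 ± 0.91), CLEC3B (2.27 ± 0.61), GSN, gelsolin (1.14 ± 0.27), and THY1 (1.39 ± 0.40) rose. Of 25 activated fibroblast genes 4 rose, with the metalloprotease ADAM12 the most stable, at 30.04, 17.99 and 10.2 against 2.77, 1.199, 0.609 and 3.20 CPM (3.32 ± 0.53). PDPN, podoplanin, a protein of lymphatics, mesothelium and activated fibroblasts, was a stable rise from 12.1, 5.65, 5.06 and 8.46 to 56.4, 29.0 and 43.8 CPM (2.46 ± 0.30), while the other 8 lymphatic genes gave 0 calls. DPP4 (0.187) and THY1 (0.147) were not called without autograft replicate 1. GSN (0.0786) lost the call without autograft replicate 2. CLEC3B (0.101) was not called without pulmonary replicate 3.

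Endothelial and adipocyte genes varied widely between the libraries of each group. Of 37 endothelial genes 6 rose and 0 fell, but 0 passed without autograft replicate 2 or pulmonary replicate 2, 3 or 4, 2 without autograft replicate 3, and 20 and 22 without autograft replicate 1 and pulmonary replicate 1. With both of these left out, 30 of the 37 endothelial genes and 12 of the 20 adipocyte genes rose. These were the lowest autograft and the highest native library of both lists, so leaving them out favours rises in advance, and the counts are no support. PECAM1, the adhesion molecule CD31, lay at 27.7, 521 and 365 against 113, 30.2, 30.6 and 30.4 CPM (2.58 ± 0.77, adjusted p = 0.0542). CA4 (4.63 ± 1.21), of capillaries, and ICAM1 (2.48 ± 0.61) rose. Of 20 adipocyte genes LPL rose (2.56 ± 0.68), and ACACB (-1.99 ± 0.34), which makes malonyl-CoA, and PLIN4 (-1.67 ± 0.36) fell; ADIPOQ lay at 2.59, 293 and 127 against 114, 1.14, 1.73 and 3.09 CPM and was not called (adjusted p = 0.4). MCAM, an adhesion molecule of mural cells, was a stable fall from 882, 1560.5, 1460.0 and 1014 to 354, 546 and 626 CPM (-1.27 ± 0.25). Mesothelial genes gave 0 calls of 7 by edgeR, with 5 at an unadjusted p under 0.05 and 1 call by DESeq2, and the nerve list gave 1 of 21, PRX (-0.78 ± 0.15). CA4 (0.246) and PLIN4 (0.0631) lost the call without autograft replicate 2. ICAM1 (0.0833) was not called without pulmonary replicate 2. LPL (0.0995) lost the call without pulmonary replicate 3.

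Among the genes of heart muscle, which could reach a root sample from its base, 1 of 22 rose and 3 fell. The share called was 18.2%, against 11.3% of all genes. The median log2 fold change of the list was 0.34, and it was above 0 for 13 of the 22. Its mean log2 CPM was 2.24, 2.89 and 3.03 in autograft and 2.31, 2.69, 2.70 and 2.53 in pulmonary sinus. TRDN, triadin of the calcium release complex, was the rise, at 0.731, 3.38 and 0.965 against 0, 0.171, 0 and 0.229 CPM (4.04 ± 1.14), and it lost the call whichever of the 7 libraries was left out. PLN and LDB3 (-1.73 ± 0.34) are also made by smooth muscle, and MYH7 fell (-2.39 ± 0.56) at 9.22, 7.80 and 9.94 against 12.3, 54.9, 75.2 and 45.8 CPM. The defining natriuretic peptide genes NPPA and NPPB had at most 4 counts in any of the 7 libraries. TRDN (0.156), LDB3 (0.0503) and MYH7 (0.0867) were not called without autograft replicate 2.

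A part of the iron and antioxidant genes rose. Of 34 antioxidant and haem genes 12 rose and 1 fell, though only 1 to 11 rises passed with 1 library left out. HMOX1, which breaks down haem, lay at 17.9995, 30.6 and 21.8 against 9.604, 7.94, 7.21 and 7.26 CPM (1.55 ± 0.26), and GPX3 (2.04 ± 0.52), MGST1 (2.65 ± 0.57) and GPX7 (1.07 ± 0.26) rose, while GCLC, of glutathione synthesis, fell (-0.99 ± 0.27). FTL, the ferritin light chain, was a stable rise, at 105, 142 and 108 against 53.5, 35.8, 50.8 and 42.9 CPM (1.37 ± 0.16, adjusted p = 0.0042). In the list of 22 metal transporters 6 rose: FTL, SLC39A8 (4.32 ± 0.84), a zinc and manganese importer, STEAP1 (2.11 ± 0.45), STEAP4 (2.06 ± 0.57), SLC11A1 (2.80 ± 0.69) and TFRC (0.68 ± 0.19), and the copper exporter ATP7B fell (-1.87 ± 0.52). GPX3 (0.0916), GPX7 (0.0936), GCLC (0.124), STEAP1 (0.065), SLC11A1 (0.0936) and ATP7B (0.102) lost the call without autograft replicate 2. STEAP4 (0.123) was not called without autograft replicate 3. MGST1 (0.059) lost the call without pulmonary replicate 2. TFRC (0.123) was not called without pulmonary replicate 3.

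Part of the lipid handling and lysosome genes rose, and the lists of energy metabolism held fewer calls. The share called was 31.8% for lipid handling and 23.5% for lysosome genes, against 11.3% of all genes. It was 17.2% for fatty acid oxidation and 16.7% for hypoxia and glycolysis. Of 22 lipid handling genes 7 rose (2 to 11 with 1 library left out), with OLR1, the oxidised LDL receptor, at 10.6, 1.11 and 1.02 against 0.226, 0, 0.187 and 0.172 CPM and SCARB1 (1.70 ± 0.37), PLTP (0.94 ± 0.21) and SOAT1 (0.76 ± 0.22) beside it. Of 18 cholesterol synthesis genes 0 were called by edgeR. Of these, 2 had an unadjusted p under 0.05, and DESeq2 called 1. Of 34 lysosome genes 7 rose, among them CTSK and CD68, and 1 fell, the regulator TFEB (-0.93 ± 0.22). The lysosome rises numbered 0 without autograft replicate 1 or pulmonary replicate 3, 1 to 4 without autograft replicate 2 or pulmonary replicate 2 or 4, and 11 without autograft replicate 3 or pulmonary replicate 1. Of 29 fatty acid oxidation genes 4 fell, with ACSBG2 (-3.13 ± 0.58) and CPT1A (-1.10 ± 0.25) first, and ACSL5 rose (1.72 ± 0.38). Of 36 hypoxia and glycolysis genes 4 fell, HK1 (-0.54 ± 0.10), PFKM (-1.24 ± 0.29), HIF3A (-1.78 ± 0.47) and SLC16A1 (-0.58 ± 0.12), and 2 rose, HIF1A (0.88 ± 0.24) and NDRG1 (1.39 ± 0.28). SOAT1 (0.133), TFEB (0.0721) and CPT1A (0.0596) were not called without autograft replicate 1. SCARB1 (0.0748), PFKM (0.078), HIF3A (0.11), SLC16A1 (0.0554) and HIF1A (0.125) lost the call without autograft replicate 2. PLTP (0.0595) was not called without pulmonary replicate 2. ACSL5 (0.0648) and NDRG1 (0.0509) lost the call without pulmonary replicate 3.

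Lists of division, respiration and translation held few calls. Of 43 cell division genes 2 rose, the cyclins CCND1 (0.92 ± 0.19) and CCND3 (1.17 ± 0.26), and MKI67, a marker of cycling cells, lay at 1.46, 0.815 and 0.738 against 2.03, 0.285, 0.422 and 0.858 CPM (adjusted p = 0.917). Of 29 oxidative phosphorylation genes 1 rose, NDUFA1 (0.38 ± 0.10). Of 53 cytosolic ribosomal proteins 4 rose (0 without autograft replicate 2 or 3 or pulmonary replicate 2 or 3, 1 without pulmonary replicate 4 and 14 without pulmonary replicate 1), with a median of 0.40, and 20 had every autograft library above every pulmonary one, against 10.9% of all genes. Of 33 immediate early genes, which respond to handling of tissue as well as to stimuli, 2 rose, DUSP6 (1.09 ± 0.24) and DUSP2 (2.62 ± 0.65), although the median was 1.02. The immediate early rises numbered 0 without autograft replicate 2 or pulmonary replicate 2 or 3, 1 without autograft replicate 3 or pulmonary replicate 4, 5 without autograft replicate 1 and 10 without pulmonary replicate 1. Of 24 heat shock genes HSPB2, a small heat shock protein of muscle, fell (-0.97 ± 0.22) and 0 rose. Of 20 clock genes 3 fell, CRY1 (-0.97 ± 0.26), TEF (-0.57 ± 0.14) and BHLHE41 (-0.85 ± 0.23); the time of day of sampling is not in the sources used here. CCND3 (0.0792), DUSP6 (0.0788), HSPB2 (0.0757), CRY1 (0.127) and BHLHE41 (0.124) lost the call without autograft replicate 2. DUSP2 (0.0929) was not called without autograft replicate 3. TEF (0.0867) lost the call without pulmonary replicate 2. CCND1 (0.0517) and NDUFA1 (0.102) were not called without pulmonary replicate 3.

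Positional and neural genes were called in both directions, at shares of 15.4% and 16%, against 11.3% of all genes. With 1 library left out, the axon guidance list had 0 to 7 rises and 1 to 7 falls. The positional list then had 1 to 3 rises and 0 to 6 falls. Of 50 axon guidance and neural adhesion genes 5 fell and 3 rose: NTNG2, a netrin-G anchored to the membrane, lay at 3.21, 6.17 and 1.82 against 8.93, 43.9, 27.3 and 15.6 CPM (-2.68 ± 0.57), and LSAMP (-3.27 ± 0.79), PLXNA4 (-1.79 ± 0.40), EPHB6 (-1.44 ± 0.31) and NTN1 (-1.247 ± 0.28) fell with it, while NTM (2.86 ± 0.67), SEMA6A (1.45 ± 0.37) and PLXNC1 (2.14 ± 0.60) rose. Of 52 outflow tract and positional genes EYA1 (2.89 ± 0.41), TWIST2 (2.31 ± 0.60) and TBX18 rose, and FOXS1 (-1.15 ± 0.23), FOXC2 (-0.75 ± 0.17), HOXA3 (-1.04 ± 0.26), MEIS1 (-0.47 ± 0.12) and MEF2C fell. In the cilium and tubulin list 7 of 46 fell and 0 rose, led by TPPP, which bundles microtubules, at 3.66, 4.19 and 4.60 against 18.3, 35.7, 24.4 and 23.3 CPM (-2.61 ± 0.27), and CCDC33, a coiled-coil protein, at 2.36, 4.83 and 4.26 against 29.1, 36.1, 35.9 and 28.2 CPM (-3.08 ± 0.38). TPPP and CCDC33 were both stable. PLXNC1 (0.152) and TWIST2 (0.0967) were not called without autograft replicate 1. LSAMP (0.0934), PLXNA4 (0.0581), NTN1 (0.0731), SEMA6A (0.103), FOXS1 (0.0554), FOXC2 (0.0838), HOXA3 (0.0936) and MEIS1 (0.105) lost the call without autograft replicate 2. NTM (0.0721) was not called without autograft replicate 3. EPHB6 (0.0552) lost the call without pulmonary replicate 3.

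The most stable calls also held genes outside these roles. By the smallest worst adjusted p, the rises included SMIM3, a small membrane protein, at 59.3, 79.2 and 72.7 against 24.3, 16.5, 24.2 and 23.4 CPM (1.67 ± 0.15), and the falls included CHD5, a chromatin remodeller (-1.49 ± 0.20), and MAPK4, an atypical MAP kinase, at 2.87, 1.40 and 2.44 against 14.0, 10.5, 13.6 and 8.69 CPM (-2.38 ± 0.31). KBTBD12 (-2.60 ± 0.44), CPNE5 (-3.36 ± 0.55) and ABCG4 (-2.49 ± 0.48), a sterol transporter, were stable falls. Other stable genes, named after their values were seen, were the cysteine protease inhibitor CST3 (1.09 ± 0.20), the selenium carrier SEPP1 (1.18 ± 0.23), CCDC80 (1.56 ± 0.31), the stress response gene NUPR1 (1.53 ± 0.23), TIPARP (2.38 ± 0.35), a target of the aryl hydrocarbon receptor, and PTPRC, the leukocyte common antigen (2.47 ± 0.45), all of which rose. On the other side CNTNAP1 (-2.06 ± 0.32), NTRK3, a neurotrophin receptor (-1.499 ± 0.26), TACC2 (-1.53 ± 0.20) and MYADM (-1.02 ± 0.17) fell.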

How the data were processed

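TRIzol extraction and a TruSeq kit are recorded per the labels' protocols. The tools listed, with no role or order, are STAR 2.5.2b, featureCounts 1.5.3, Bowtie2 2.3.3.1 and cutadapt, per the submitters' processing notes. Not given in the sources used here were the genome build, the annotation and the strand setting, so overlapping, antisense and near-identical genes cannot be separated. The authors deposited raw counts per gene, 1 table per run, for 26200 symbols, and FPKM tables that served only as an alternative. No deposited FPKM value is 0, even where the count is 0. Symbols made of LOC and a gene ID were named through RefSeq gene IDs (501 so named; assembly ARS-UI_Ramb_v3.0, names and types only).

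Counts of both runs were added per library, since the chi-square per gene was 1.38 to 1.51 for 2 runs of a library and 30.1 to 105 for 2 libraries of a group. A row with no gene name held at most 0.000522% of counts and was left out. All 11 libraries entered 1 edgeR 4.0.16 quasi-likelihood fit (R 4.3.3, limma 3.58.1) with filterByExpr by group and TMM, tested on simulated data. A gene was called at a Benjamini-Hochberg adjusted p under 0.05, and SE is the fold change over the root of F. Mean log2 CPM used a prior count of 2. Within a group, replicates are separate animals per the labels. The aortic libraries came from the same animals, D3 to D6, as the pulmonary ones, and the main fit held no animal term. DESeq2 1.42.0, limma-voom, other filters, scaling, FPKM, single runs, blocks and left-out libraries were alternatives.

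The libraries were picked by their labels and not by their values, though earlier results of these data were known. The 68 gene lists were also chosen with those results known, so no list is independent support. The list of mitochondrially encoded genes had 0 members in the files. Genes were named by rule: the 12 largest rises and falls, the 8 with most counts and the 10 most stable in each direction, up to 6 called members of a list by p and up to 3 against its majority, and fixed anchor genes. Named beyond that rule, after their values were seen, were ACVRL1, ADRA1B, BMP4, C1S, CCDC80, CCL19, CD5, CD6, CD86, CFB, CLEC3B, CNTNAP1, COL4A5, COL4A6, COL7A1, CST3, CXCL12, DMD, DST, FILIP1L, GPX3, IL1B, IL6, ITGA2, ITGA7, ITGB2, KANK2, LAMA5, LCK, LTB, MPRIP, MSLN, MYADM, NID2, NTRK3, NUPR1, PRF1, PTPRC, RYR3, SEPP1, SLC8A1, SMAD1, SPEG, SPTAN1, TACC2, TFRC, TGFBR1, THY1, TIPARP, TNF, TREM2 and VCL. A few genes and 1 list are not reported here.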

Additional observations from a re-analysis of the deposited data

Results flagged for a closer look

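In the group of 4 pulmonary libraries, 23 of the 274 genes of the text had 1 library far from the others on the log2 scale by Dixon's criterion, which chance meets in about 1 in 20 groups. The 3 autograft libraries are too few for it. Pulmonary replicate 1 stood apart for PECAM1 at 113 CPM, SOAT1 at 19.9 CPM, MGST1 at 10.2 CPM, MFNG at 8.19 CPM, IFIH1 at 6.89 CPM, IL15RA at 6.38 CPM, STEAP1 at 0.847 CPM, TNF at 0.339 CPM and FLT3 at 0.282 CPM. Replicate 2 did so for MMP2 at 74.5 CPM, ATP7B at 26.3 CPM, SMIM3 at 16.5 CPM, JCHAIN at 4.17 CPM, CFB at 1.48 CPM, LYZ at 0.0571 CPM and OLR1 at 0 CPM, replicate 3 for CPNE5 at 12.6 CPM, and replicate 4 for DST at 497 CPM, SGCB at 61.6 CPM, FOXC2 at 43.6 CPM, BHLHE41 at 10.8 CPM, LSAMP at 1.66 CPM and IL1B at 0.172 CPM. Of 67 lists, 4 had such a library, each time pulmonary replicate 1, with a mean log2 CPM of 5.70 for YAP and mechanosensitive genes, 3.42 for cadherins, -0.23 for T and NK cell genes and 3.96 for endothelial genes.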

How the results depend on the processing

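The 1699 calls became 2997 with DESeq2 (1635 higher, 1362 lower), 479 with the autograft and pulmonary libraries alone (265 and 214) and 148 when tested against a fold of 1.5 (103 and 45). With 1 library left out the number lay between 452 and 2753, and fewer genes fell than rose except without pulmonary replicate 2 (242 rose, 280 fell), replicate 3 (222 and 283) or replicate 4 (466 and 538). With FPKM + 1, FPKM + 0.1 and FPKM of at least 1, falls were more frequent as well (847 and 864, 851 and 935, 724 and 881). Scaling by RLE, another filter, limma-voom, single runs and leaving out animal D3 kept the number within 1.5 times. None of the 274 genes of the text reversed its direction under these alternatives while called. Of the 264 called, 153 lost the call without autograft replicate 2, 128 and 137 when pulmonary replicates 2 and 3 were dropped singly, 135 in the fit of 7 libraries, 2 with DESeq2 and 0 with RLE.

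Same-numbered autograft and pulmonary libraries come from different animals, and the correlations of their deviations were 0.06, -0.01 and 0.14, so the numbers do not pair them. A replicate block with the number as a fixed term gave 2164 calls, and with animal as a random term 1611.

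At this depth, genes with a few counts per library, such as TBX21 and CD27, carry large counting error, and 3 against 4 libraries limit all calls.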
